A study of Mus musculus with 6 samples.

Results

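The lipid droplet proteins examined here are 10 mouse genes. They were chosen by symbol and not by any measured value, though with earlier results of these data known. The genes are the perilipins Plin2, Plin3, Plin4 and Plin5, the CIDE genes Cidea, Cideb and Cidec, the lipase gene Pnpla2 with its inhibitor G0s2, and Hsd17b13. Each matched 1 row of the 55802 rows in the gene count table. The 6 libraries were prepared from liver RNA of wild-type (WT) C57BL/6 mice. The 3 control libraries came from mice treated with oil. The 3 CCl4 libraries came from mice given CCl4 (carbon tetrachloride), a solvent that hepatocytes turn into a reactive radical and that is used in rodents to produce liver injury and fibrosis. The sources used here give no age, sex, dose or duration. They also do not say whether each library is a different mouse. The tests therefore weigh differences against library-to-library scatter, part of which may be technical.

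Cells store neutral fat, mainly triglyceride and cholesteryl ester, in lipid droplets, which bud from the endoplasmic reticulum and carry a single layer of phospholipid studded with proteins. Perilipins coat the droplet and control the access of lipases, CIDE proteins enlarge droplets by passing lipid from a smaller to a larger droplet, and adipose triglyceride lipase (the product of Pnpla2) begins the breakdown of stored triglyceride. In the liver these proteins are among the factors that set how much fat a hepatocyte holds. A loss-of-function variant of human HSD17B13 is known for its association with protection from chronic liver disease.

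The libraries held 18929972 to 20042731 counts each. Of 15579 genes that passed the filter on low counts, 6427 were called at a Benjamini-Hochberg adjusted p under 0.05 in edgeR's quasi-likelihood test, 3303 higher and 3124 lower with CCl4. That split was 4103 higher and 2177 lower with upper quartile scaling, and 4824 and 1676 with library size alone. Of 14 hepatocyte markers 3 were called higher and 5 lower (median log2 fold change -0.14). Among them albumin (Alb) was not called (0.043, adjusted p = 0.655), Ttr was called higher (0.24) and Apoa2 (-0.44) lower. The largest change of the 14 was the fall of Serpina1e (-2.49, adjusted p = 0.0205). Levels are given in CPM, counts per 1000000 counts of the scaled library. Of 15 macrophage markers 14 were called higher, of 13 markers of pericentral hepatocytes 11 were called lower, and of 16 markers of stellate cells and myofibroblasts 9 were called higher and 1 lower. The summed macrophage markers went from between 456.1 and 575.9 CPM in controls to between 1330.0 and 1424 CPM with CCl4. In whole liver, fewer cells of a type and less RNA per cell cannot be told apart. The part of these shifts in the results below was not tested, except where a value is given.

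Of the 10 genes, 9 passed the filter and 5 were called, 1 higher and 4 lower in the CCl4 livers. Over all genes tested, 41.3% were called, 21.2% higher and 20.1% lower. Hsd17b13 rose by 0.71 on the log2 scale. Plin4 fell by 1.29, Plin2 by 0.72, Pnpla2 by 0.37 and Cideb by 0.22. The changes of Plin3 (0.20), Plin5 (0.07), G0s2 (-0.46) and Cidec (-1.21) did not pass the test, and Cidea was too low in 5 of 6 libraries to be tested. The median log2 fold change of the 9 tested genes was -0.37, against 0.00056 for all genes tested. In 5 of the 9 the control and CCl4 values did not overlap, where the share over all genes tested was 54.0%. Both shares are read against a comparison in which a large part of all genes moved, and 9 genes are too few to set them apart from it.

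**Figure D1:**
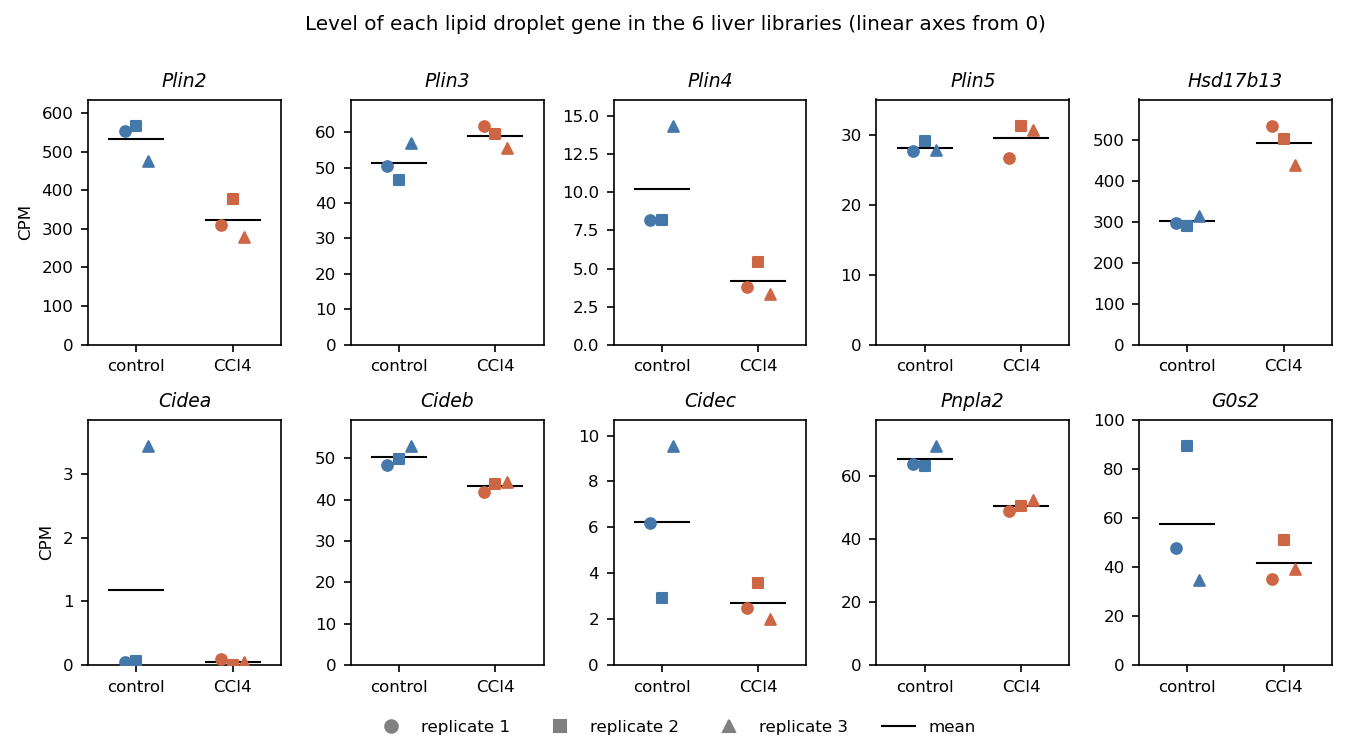
Level in CPM (linear axes from 0) of each of the 10 genes in the 3 control (blue) and 3 CCl4 (orange) libraries, with marker shapes for replicates and a black line for the group mean. Plin2, Plin4, Cideb and Pnpla2 lie lower and Hsd17b13 higher in all 3 CCl4 libraries than in any control, and Cidea stands above 1 CPM in control replicate 3 alone.

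The promoters of the 3 genes with the smallest adjusted p, Hsd17b13, Pnpla2 and Plin2, are shown because 1 rose and the other 2 fell in the same livers. They are RefSeq windows of the GRCm38.p6 build, each from 250 bases before to 10 bases after the annotated start site, written 5′ to 3′ on the gene's strand. RefSeq windows were found for 9 of the 10 genes (all but Cidea).
Plin2, chr4:86670050-86670309, minus strand, E-box in capitals: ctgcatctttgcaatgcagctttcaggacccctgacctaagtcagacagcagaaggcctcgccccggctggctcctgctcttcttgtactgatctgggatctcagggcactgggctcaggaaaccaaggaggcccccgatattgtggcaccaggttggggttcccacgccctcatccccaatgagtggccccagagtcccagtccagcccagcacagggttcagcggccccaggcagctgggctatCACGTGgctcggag
Pnpla2, chr7:141454938-141455197, plus strand, GC boxes in capitals: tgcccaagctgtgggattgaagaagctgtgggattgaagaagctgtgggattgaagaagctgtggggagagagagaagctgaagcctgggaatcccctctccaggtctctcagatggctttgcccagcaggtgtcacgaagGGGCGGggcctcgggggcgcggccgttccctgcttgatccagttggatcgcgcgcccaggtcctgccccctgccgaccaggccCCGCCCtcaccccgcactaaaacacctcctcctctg
Hsd17b13, chr5:103977379-103977638, minus strand, HNF4 core in capitals: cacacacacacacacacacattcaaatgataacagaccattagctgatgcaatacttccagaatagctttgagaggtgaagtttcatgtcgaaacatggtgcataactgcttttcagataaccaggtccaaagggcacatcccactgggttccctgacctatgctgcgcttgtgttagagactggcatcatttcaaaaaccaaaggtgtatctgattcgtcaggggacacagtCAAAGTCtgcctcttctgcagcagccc
The Plin2 window holds 1 E-box (CACGTG, the letters read by basic helix-loop-helix factors), which runs across the start site and occurs in 6.34% of all 32851 RefSeq windows of this length. The Pnpla2 window holds 2 GC boxes (GGGCGG, read by Sp1-type factors, 1 on each strand), and 33.4% of all windows hold at least 1. The Hsd17b13 window holds 1 match to an HNF4 core (CAAAGTC) at 17 to 11 bases before the start site, which occurs in 3.95% of windows. This core is not particular to the gene that rose. The window of Cideb, which fell and is not shown, holds it at 85 to 79 and at 34 to 28 bases before the start site. The other motifs searched were AP-1 (TGANTCA, in 7.03% of windows), the CCAAT box (CCAAT, 34.6%), the TATA box (TATAAA, 12.7%) and a direct repeat of the PPAR-RXR kind (0.347%). All were searched on both strands. In the 3 windows shown the only further match was a CCAAT box in Plin2, at 73 to 69 bases before the start site, and no match overlapped another. The PPAR-RXR repeat was not matched in the windows of the 9 genes. The 3 windows also differed in base composition, with 61.9% G and C for Plin2, 63.1% for Pnpla2 and 46.2% for Hsd17b13. These matches describe letters and show neither binding nor use of a site.

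Plin2, the perilipin that coats most hepatocyte droplets and is degraded when it has no droplet to sit on, was the most abundant of the perilipin transcripts. It stood at 554.3, 567.2 and 476.3 CPM in control replicates 1, 2 and 3 and at 310.5, 378.2 and 278.9 CPM in the CCl4 ones. The highest CCl4 library lay below the lowest control. The fold change was 0.606 with a 95% interval of 0.502 to 0.73 (log2 fold change -0.72, SE 0.12, adjusted p = 0.00166). Mean levels were 532.6 ± 49.2 CPM in controls and 322.5 ± 50.8 CPM with CCl4 (SD, n = 3, as for all means here). Foamy macrophages also express Plin2. It fell while the summed macrophage markers rose in all 3 CCl4 libraries.

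Plin3, a perilipin found in the cytosol that moves to newly formed droplets, stood at 50.36, 46.52 and 56.93 CPM in controls and at 61.79, 59.6 and 55.51 CPM with CCl4. Control replicate 3 lay above CCl4 replicate 3, so the groups overlapped. The log2 fold change was 0.20 (95% interval 0.025 to 0.38, adjusted p = 0.0662), and Plin3 was called higher without control replicate 3 (0.28, adjusted p = 0.0196) or without CCl4 replicate 3 (0.24, adjusted p = 0.0342). It was also called with 2 other scalings and with no filter on low counts. Plin5, which joins droplets to mitochondria in tissues that burn fat, stood at 27.63, 29.07 and 27.78 CPM and at 26.66, 31.31 and 30.75 CPM. CCl4 replicate 1 was the lowest and CCl4 replicate 2 the highest of all 6 libraries. The interval of its log2 fold change ran from -0.097 to 0.24 (adjusted p = 0.481), so a change of Plin5 as large as that of Plin2 lies outside it.

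Plin4, a perilipin with long repeats that is abundant in white fat, stood at 8.198, 8.159 and 14.37 CPM in controls and at 3.78, 5.441 and 3.341 CPM with CCl4. Control replicate 3 was the highest library, and the groups did not overlap. Plin4 was 2.44-fold lower with CCl4, with a 95% interval of 1.53 to 3.9 (log2 fold change -1.29, SE 0.29, adjusted p = 0.00986). Without control replicate 3 the log2 fold change was -0.97 and still called (adjusted p = 0.0086). With control replicate 2 as the only control the value was again -0.97 but was not called (adjusted p = 0.0723). That comparison was chosen after seeing the data, and it assumes that the lone control varies as the CCl4 libraries do.

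Perilipins differ in gene length, so they were compared with each other as CPM per kb of exon. On that scale Plin2 made up 85.0, 85.4 and 81.5% of the summed perilipin level in controls and 74.8, 77.3 and 72.6% in CCl4 livers. The share of Plin3 was 7.56 ± 1.32% in controls and 12.8 ± 1.35% with CCl4, that of Plin5 7.5 ± 0.45% and 11.7 ± 1.55%, and that of Plin4 1.0 ± 0.427% and 0.586 ± 0.0786%. The summed level went from 180.5 ± 12.2 to 122.3 ± 15.4 CPM per kb. Within a library the ratio of Plin2 to Plin5 counts was 20.1, 19.5 and 17.1 in controls and 11.6, 12.1 and 9.07 with CCl4, and that of Plin2 to Plin3 was 11.0, 12.2 and 8.37 against 5.03, 6.35 and 5.02. Neither ratio overlapped between the groups. Both had an exact two-sided permutation p of 0.1, the smallest that 3 against 3 libraries can give (adjusted p = 0.2 over 6 ratios). These ratios do not depend on how libraries are scaled.

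**Figure D2:**
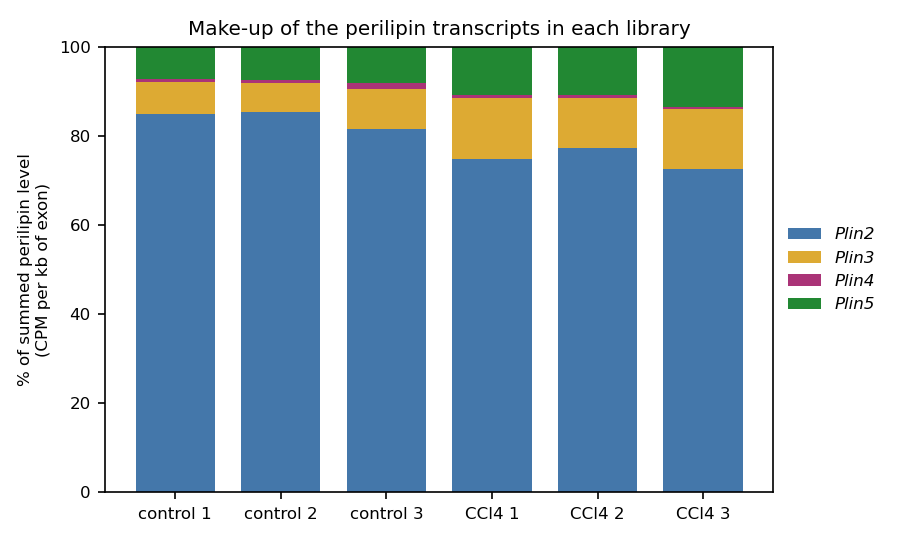
Stacked bars of the share (% of the summed level in CPM per kb of exon) of Plin2, Plin3, Plin4 and Plin5 in each of the 6 libraries. Plin2 takes 81.5 to 85.4% in the controls and 72.6 to 77.3% in the CCl4 libraries, with Plin3 and Plin5 filling the difference.

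Hsd17b13, a hepatocyte enzyme of the short-chain dehydrogenase family that sits on droplets, was the member that rose. It stood at 298.1, 291.1 and 315.1 CPM in controls and at 535.6, 503.2 and 439.1 CPM with CCl4, with every CCl4 library above every control. The fold change was 1.63 (95% interval 1.44 to 1.85, log2 fold change 0.71, SE 0.080, adjusted p = 0.00014). Leaving out any 1 library kept the log2 fold change between 0.65 and 0.79, with a call each time. Its close relative Hsd17b11, also a droplet protein, stood at 149.8, 151.0 and 165.0 CPM and at 161.6, 141.6 and 110.9 CPM, and was not called (log2 fold change -0.17, adjusted p = 0.333). The ratio of Plin2 to Hsd17b13 counts was 1.86, 1.95 and 1.51 in controls and 0.58, 0.752 and 0.635 in CCl4 livers, 2.71-fold lower on average (exact two-sided permutation p = 0.1, adjusted p = 0.2).

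Cideb, the CIDE protein of hepatocytes, which also takes part in loading triglyceride onto very low density lipoprotein, stood at 48.34, 49.71 and 52.96 CPM in controls and at 41.94, 43.67 and 44.31 CPM with CCl4. The spread within each group was narrow and the groups did not overlap. The log2 fold change was -0.22 (SE 0.058, adjusted p = 0.014). Cideb was no longer called when CCl4 replicate 1 was left out (adjusted p = 0.0562), in DESeq2 (0.0568), with upper quartile scaling (0.0886) and with library size alone (0.399). In the GENCODE M21 annotation 1136 bases of Cideb exon, 76.3% of its length, are shared with Nop9 on the opposite strand. The sources used here do not state whether the counting used strand, so reads of the pair cannot be told apart with certainty. Nop9 itself, which encodes a nucleolar RNA-binding protein, changed by -0.21 and was not called (adjusted p = 0.149).

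Cidec, also known as Fsp27, which drives the growth of large droplets in fat cells and in fatty liver, stood at 6.175, 2.918 and 9.542 CPM in controls and at 2.47, 3.561 and 2.014 CPM with CCl4. Control replicate 2 lay within the CCl4 range. The log2 fold change of -1.21 had a 95% interval of -2.33 to -0.096 and was not called (adjusted p = 0.0803). Without control replicate 2 Cidec was called (-1.55, adjusted p = 0.00395), and DESeq2 called it on all 6 libraries (-1.21, adjusted p = 0.00443). With control replicate 2 as the only control its log2 fold change was -0.13 (adjusted p = 0.84). The exact permutation p of the Cidec to Cideb ratio was 0.3.

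Cidea, the CIDE protein typical of brown fat, had 1, 1 and 65 counts in control replicates 1, 2 and 3 and 2, 0 and 1 counts in the CCl4 ones. Control replicate 3 thus stood at 3.45 CPM (exact Poisson interval 2.66 to 4.39, counting error only), and each other library at 0.101 CPM or less. For the count of 0 in CCl4 replicate 2, a limit of 3 counts corresponds to 0.148 CPM, and the same exact Poisson interval reaches 0.182 CPM. No mean or fold change is given, since a single library holds nearly all of the counts.

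Markers of fat cells were present in the same control libraries. Of 13 adipocyte markers 4 passed the filter, of which 2 were called lower and 0 higher, and the sum of the 12 markers other than Cidea was 34.74 to 106.6 CPM in controls and 31.2 to 37.0 CPM with CCl4. Fabp4, Lipe, Adrb3 and Aqp7 were set apart from the other markers after their values had been seen. Fabp4 stood at 18.58, 9.942 and 36.31 CPM in controls and at 16.73, 16.52 and 15.08 CPM with CCl4 (adjusted p = 0.548). Aqp7 had 8, 2 and 12 counts against 2, 8 and 7, and Adrb3, which fell by 0.83, was highest in control replicate 2 (10.7 CPM). The 8 remaining markers summed to 403, 43 and 806 counts in control replicates 1, 2 and 3 and to 9, 7 and 6 counts in the CCl4 libraries. Among them, the fat hormone gene Adipoq had 87, 4 and 119 counts in controls and 0, 1 and 0 with CCl4, and Plin1, the perilipin of mature adipocytes, had 35, 3 and 103 against 0, 0 and 1. Lep, which encodes leptin, was at 0 in all 3 CCl4 libraries and in control replicate 2. Ucp1, the uncoupling protein that defines brown fat, had 70 counts in control replicate 3, 1 in CCl4 replicate 3 and 0 elsewhere. Genes of the exocrine pancreas were also lower with CCl4. In controls Ctrb1 had 24, 0 and 15 counts, Prss2 14, 0 and 6, and Cpa1 9, 0 and 8. All of these were at 0 in each CCl4 library. Cela2a had 23, 10 and 25 counts in controls and 3, 4 and 6 with CCl4. Unlike the 8 adipocyte markers, Ctrb1, Prss2 and Cpa1 were highest in control replicate 1.

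Cidea, Cidec and Plin4 were each highest in control replicate 3, and Cidec was ordered like the 8 markers within the controls, lowest in replicate 2 and highest in replicate 3. Plin4 was alike in control replicates 1 and 2, whose marker sums differed (403 and 43 counts), and in control replicate 2 it lay above all 3 CCl4 libraries. The part of fat cell transcripts in the Cidec and Plin4 differences was not tested. With control replicate 2 as the only control, the log2 fold changes were -0.82 for Plin2 (adjusted p = 0.0341), -0.32 for Pnpla2 (adjusted p = 0.0419) and 0.75 for Hsd17b13 (adjusted p = 0.0224). These p-values rest on 1 control library and a borrowed spread, and the same comparison called G0s2, whose value in that library stood apart from the other controls.

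**Figure D3:**
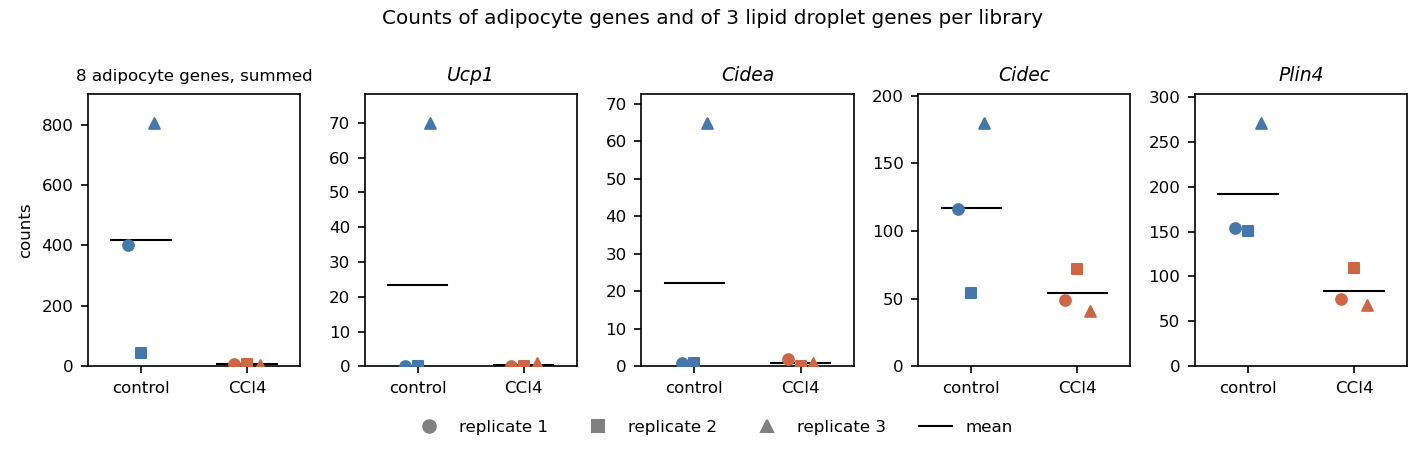
Counts per library (linear axes from 0, black lines for group means) of 8 adipocyte genes summed, of the brown fat gene Ucp1, and of Cidea, Cidec and Plin4. Control replicate 3 (triangle) is the highest library in all 5 panels, and control replicate 2 (square) lies among the CCl4 libraries for Cidec but above them for Plin4.

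Pnpla2, which encodes adipose triglyceride lipase, stood at 64.04, 63.11 and 69.6 CPM in controls and at 48.89, 50.5 and 52.57 CPM with CCl4, without overlap. The fold change was 0.772 (95% interval 0.704 to 0.847, log2 fold change -0.37, SE 0.059, adjusted p = 0.000922), the smallest adjusted p among the 4 members that fell. Leaving out 1 library at a time kept its log2 fold change between -0.40 and -0.33, with a call each time. G0s2, the protein that binds the lipase and blocks it, stood at 47.96, 89.42 and 34.72 CPM in controls and at 35.13, 50.84 and 39.3 CPM with CCl4. Its controls differed among themselves by more than the groups did. The interval of its log2 fold change ran from -1.55 to 0.63 (adjusted p = 0.436). Without control replicate 2 the value was 0.0095, and with that library as the only control it was -1.10 (adjusted p = 0.0347), so its direction rested on that library. The ratio of G0s2 to Pnpla2 counts was 0.749, 1.42 and 0.499 in controls and 0.719, 1.01 and 0.748 with CCl4 (exact two-sided permutation p = 1.0).

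**Figure D4:**
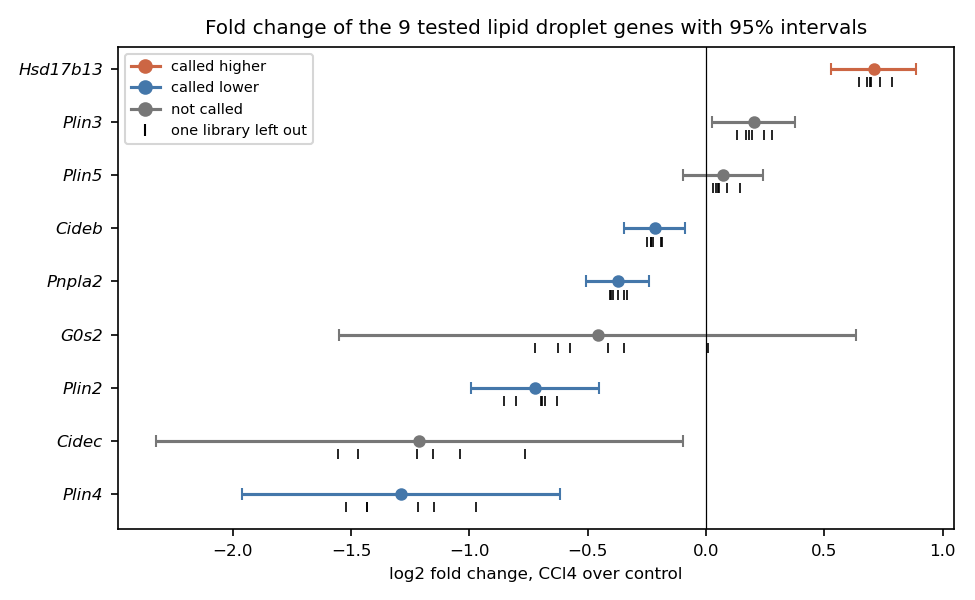
Log2 fold change (CCl4 over control) of the 9 tested genes with 95% intervals, coloured by call, and with black ticks for the value when each library is left out in turn. Hsd17b13 lies above 0, Plin4, Plin2, Pnpla2 and Cideb below 0, and the interval of G0s2 runs from -1.55 to 0.63.

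Compared per kb of exon, the members spanned a wide range of levels. In controls Plin2 (151.7 ± 14.0 CPM per kb) and Hsd17b13 (139.7 ± 5.73) overlapped at the top, above 98.0% and 97.9% of all genes tested that have a length. G0s2 followed (65.87 ± 32.8), then Cideb (33.83 ± 1.59), Pnpla2 (21.72 ± 1.16), Plin3 (13.54 ± 1.39) and Plin5 (13.49 ± 0.38), of which Plin3 and Plin5 overlapped. Cidec (3.347 ± 1.78) and Plin4 (1.773 ± 0.618) overlapped below them. With CCl4 the levels were 228.4 ± 22.8 CPM per kb for Hsd17b13, 91.84 ± 14.5 for Plin2, 47.94 ± 9.35 for G0s2, 29.1 ± 0.827 for Cideb and 16.77 ± 0.61 for Pnpla2. Plin3 (15.58 ± 0.842), Plin5 (14.17 ± 1.22), Cidec (1.445 ± 0.428) and Plin4 (0.7248 ± 0.192) came next, and Pnpla2 and Plin3 now overlapped. The lengths are exon unions of GENCODE M21, which may differ from the gene models the authors counted.

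The wider pathway was read from 6 lists of other lipid droplet and triglyceride genes. Of 113 of their genes tested, 14 were called higher and 39 lower, together 46.9% against 41.3% of all genes, with a median log2 fold change of -0.10. With library size alone as the scaling, which raises the median of all genes to 0.15, the counts were 21 higher and 28 lower.

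Lipolysis genes showed 6 members called lower and 1 higher of 15 tested (46.7%, against 41.3% of all genes, median -0.18). With upper quartile scaling 4 were lower and 1 higher (median -0.091). Library size alone also gave 4 lower and 1 higher (median -0.028). Mgll, the lipase that finishes the breakdown by cutting monoglyceride, fell from 148.3 ± 12.1 to 124.7 ± 2.77 CPM (adjusted p = 0.015), but was not called when control replicate 1 (adjusted p = 0.0599), control replicate 3 (0.0562) or CCl4 replicate 1 (0.0544) was left out. Mgll was also not called with upper quartile scaling (-0.16, adjusted p = 0.0685), with library size alone (-0.10, adjusted p = 0.262) or with control replicate 2 as the only control (-0.11, adjusted p = 0.353). The carboxylesterase genes Ces1f (-1.15) and Ces2a (-0.71) fell and Ces2e (0.37) rose. These have near-identical relatives, so their separate values are uncertain. Abhd5, the activator that G0s2 competes with at the lipase, stood at 27.43 ± 1.28 and 24.25 ± 3.63 CPM (adjusted p = 0.21), and the ratio of Pnpla2 to Abhd5 overlapped between groups (exact permutation p = 0.3). Lipe, hormone-sensitive lipase, stood at 15.15 ± 3.06 and 11.3 ± 1.64 CPM (adjusted p = 0.0706). Lipe was called lower when low counts were kept in (adjusted p = 0.0363), with the replicate block (0.0145), without control replicate 2 (0.00813) and without CCl4 replicate 1 (0.0471). Pnpla3, the droplet lipase whose human variant is tied to fatty liver, stood at 1.795 ± 0.752 and 4.071 ± 2.14 CPM (adjusted p = 0.0862). It was called higher in DESeq2 (adjusted p = 0.0153), with the replicate block (0.00592) and without CCl4 replicate 1 (0.0119). Hilpda, a further inhibitor of the Pnpla2 lipase, stood at 2.23 ± 0.744 and 2.713 ± 0.276 CPM (adjusted p = 0.408).

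Genes of droplet formation and of its phospholipid coat showed 4 called higher and 6 lower of 19 tested (median -0.12). Together these were 52.6%, against 41.3% of all genes. Fitm1, a fat storage-inducing membrane protein, fell from 11.07, 16.97 and 11.34 CPM in controls to 0.403, 0.247 and 0.344 CPM with CCl4. Its log2 fold change of -5.28 (adjusted p = 3.22e-06) was the largest in the 6 lists. Fitm1 is best known from muscle. Skeletal muscle actin (Acta1) had 5, 39 and 1 counts in controls and 14, 1 and 6 with CCl4, and muscle creatine kinase (Ckm) had 3, 2 and 2 against 3, 0 and 0. Myh4, also a gene of skeletal muscle, had 0, 0 and 1 counts in controls and 0, 0 and 1 with CCl4. Control replicate 2 was the highest library for both Fitm1 and Acta1. Control replicate 3, with 1 count of Acta1, had Fitm1 at 11.34 CPM, and CCl4 replicate 1, with 14 counts, at 0.403 CPM. The part of muscle transcripts in the Fitm1 difference was not tested. Fitm2, its widely expressed relative, fell from 55.68 ± 8.63 to 38.09 ± 2.17 CPM (adjusted p = 0.00359). The lipid transfer protein gene Atg2a fell by 0.74, while Lpcat2, which remodels phosphatidylcholine, rose by 1.38. Tmem159, also called Ldaf1, the partner of seipin at budding droplets, rose by 1.36. Both rose from low levels, 2.98 ± 0.883 CPM for Lpcat2 and 1.872 ± 0.427 CPM for Tmem159 in controls. With control replicate 2 as the only control their log2 fold changes were 0.95 and 1.18. Bscl2, which encodes seipin, stood at 35.62 ± 1.42 and 34.75 ± 3.4 CPM (adjusted p = 0.747).

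Genes of triglyceride synthesis showed 4 called higher and 5 lower of 18 tested (median 0.012). Of the pair of enzymes that make triglyceride from diglyceride, Dgat2 was called lower (-0.48, adjusted p = 0.0011) and Dgat1 was not called (-0.066, adjusted p = 0.587). Lpin2, a phosphatidate phosphatase, fell by 0.73 and Acsl1, which activates fatty acids, by 0.68. The acyltransferases Gpat3 (2.586 ± 0.728 to 7.419 ± 1.93 CPM) and Agpat4 (0.9777 ± 0.297 to 2.019 ± 0.0426 CPM) rose from low levels. Their log2 fold changes were 1.52 and 1.04, and 1.19 and 1.62 with control replicate 2 as the only control. Among other droplet surface proteins 7 were called lower and 0 higher of 26 tested (median -0.09). These 26.9% lay below the 41.3% called over all genes, of which 20.1% were lower. That list gained 1 higher call with upper quartile scaling and 2 with library size alone. Its largest falls were those of the retinol dehydrogenase gene Rdh16 (-1.09, adjusted p = 0.0122) and the sterol enzyme gene Nsdhl (-0.93, adjusted p = 0.00884).

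Genes of triglyceride export showed 4 called higher and 4 lower of 14 tested (57.1%, against 41.3% of all genes, median 0.042). With library size alone 6 were higher and 4 lower (median 0.19). Apoa4, an apolipoprotein known to rise with liver fat, stood at 44.55 ± 9.34 CPM in controls and at 290.0 ± 22.7 CPM with CCl4, a log2 fold change of 2.70 (adjusted p = 4.39e-05). Apobec1, the editing enzyme of the Apob transcript, rose by 0.55, and the cargo receptor genes Mia2 and Mia3 fell by 0.53 and 0.44. Mttp, which loads triglyceride onto apolipoprotein B, stood at 353.1 ± 7.13 and 335.8 ± 4.27 CPM (adjusted p = 0.312). Among transcription factors of lipid storage 11 were called lower and 1 higher of 22 tested (54.5% called, median -0.27). With upper quartile scaling 8 were lower and 1 higher, and with library size alone 6 were lower and 3 higher (median -0.12). The nuclear receptor Ppara, which is known to drive Plin2, Plin5 and Pnpla2 transcription, went from 112.4, 120.6 and 131.8 CPM to 47.98, 49.56 and 53.5 CPM (adjusted p = 3.91e-06). Pparg, which drives Cidec, Cidea and Plin4 in fat cells and in fatty liver, stood at 9.955, 9.996 and 14.58 CPM in controls and at 7.712, 9.743 and 15.77 CPM with CCl4, with overlap (adjusted p = 0.904). Atf3, a stress-induced factor, rose by 1.90, and Nr4a1 fell by 1.88. Nr4a1 was not called without CCl4 replicate 1 (adjusted p = 0.0555), without CCl4 replicate 3 (0.0931), with no filter on low counts (0.082) or with control replicate 2 as the only control (-1.03, adjusted p = 0.125).

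**Figure D5:**
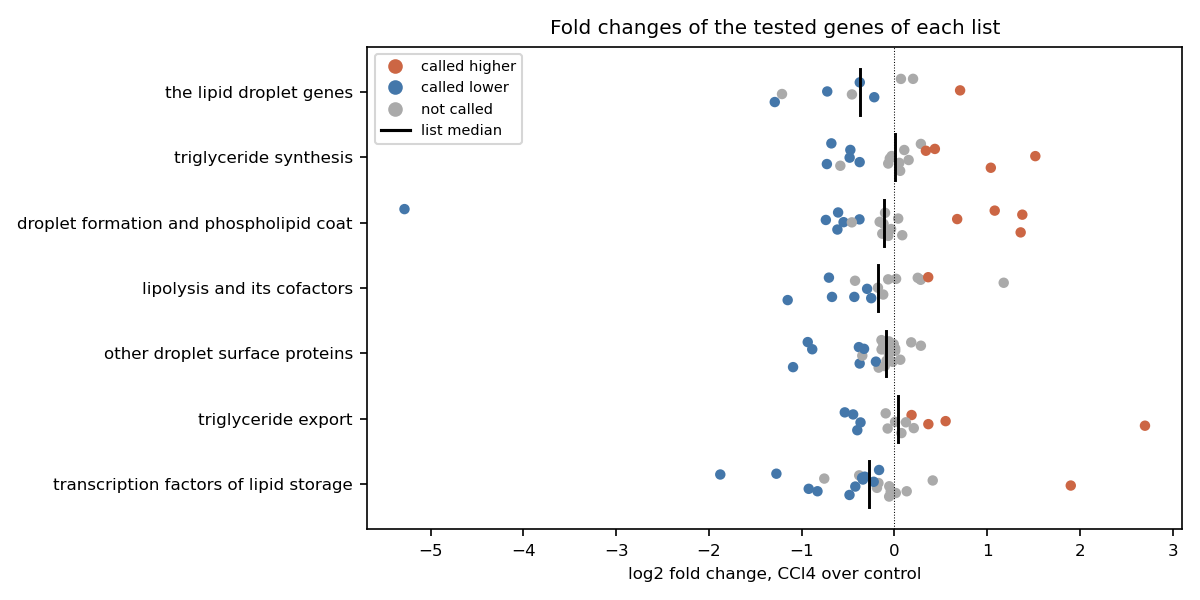
Log2 fold change (CCl4 over control) of the tested genes of the lipid droplet set and of 6 related lists, with orange for called higher, blue for called lower, grey for not called and a black bar for the list median. The medians lie between -0.37 for the lipid droplet genes and 0.042 for triglyceride export, and Fitm1 stands apart at -5.28.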

How the data were processed

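Messenger RNA libraries from liver (3 of oil-treated and 3 of CCl4-treated mice, 1.3 µg of total RNA each) were made with a SMARTER kit, per the labels' protocols. Per the series' design text, adapters and poor reads were removed and the rest aligned with HISAT2. Per the submitters' processing notes, featureCounts was used. The sources used here state no versions, genome build or annotation, nor how strand and reads with several matches were handled. The authors deposited whole-number read counts for each gene, without normalization. The 443 rows without an Ensembl number took 0.543 to 0.679% of each library and were kept. Symbols came from GENCODE M21 by identifier (52083 of 55359 matched).

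The test was edgeR 4.0.16 in R 4.3.3 (filterByExpr, TMM scaling, glmQLFit with robust estimation, glmQLFTest), with Benjamini-Hochberg adjustment over the 15579 genes kept and a threshold of 0.05. The test was checked on simulated counts in which every gene had the same scatter between libraries. That check does not cover genes with wide scatter among the controls, such as Cidec and G0s2. CPM are relative to the TMM-scaled library, standard errors are the log2 fold change over the square root of F, and log2 fold changes are CCl4 over control. Count ratios were tested by exact permutation (scipy 1.17.1). Intervals of counts cover counting error only, since no molecular identifiers are mentioned. No replicate pair matched within sampling noise: chi-square values per gene were 7.97 to 11.5 for control pairs and 5.19 for CCl4 replicates 1 and 2. CCl4 replicate 3 stood apart, with 23 against replicate 1 and 18 against replicate 2.

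The alternatives were RLE, upper quartile and no scaling, no filter, a stricter filter (mean of 1 CPM and 10 counts in 3 libraries), DESeq2 1.42.0, limma-voom (limma 3.58.1), a replicate block, and leaving out each library in turn. Control replicate 2 as the only control was added after seeing the data. The members, lists, motifs and tests were chosen with earlier results of these data known. Named were all members, 13 set genes of the pathway (such as Abhd5 and Mttp) and, from each of the 6 lists, the 2 largest called rises and falls among genes of at least 1 CPM. Others (Hsd17b11, Nop9, Ckm, Acta1, Myh4, Alb, Ttr, Apoa2, Serpina1e and the adipocyte and pancreas genes) were chosen for naming once their values had been seen.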

Additional observations from a re-analysis of the deposited data

How the results depend on the processing

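Hsd17b13, Plin2 and Pnpla2 kept their direction and call under every alternative run, and Plin4 under all but 2. With no filter on low counts Plin4 was not called (-1.30, adjusted p = 0.0531). The other losses were those of Cideb: -0.13 with upper quartile scaling, -0.069 with library size alone, -0.22 in DESeq2 and -0.19 without CCl4 replicate 1. With each library left out Cideb ranged from -0.25 to -0.18 and kept its call in the other 5 fits. Gains of a call were those of Plin3 with upper quartile scaling (0.29), library size alone (0.35) and no filter (0.19), without control replicate 3 (0.28) and without CCl4 replicate 3 (0.24). Its range with each library left out was 0.13 to 0.28, without a call in the other 4 fits. Thus 2 members were called higher with those settings, and 1 to 2 with a library left out. Cidec gained a call in DESeq2 (-1.21) and without control replicate 2 (-1.55), which made 5 members called lower in the latter fit. With a library left out Cidec ranged from -1.55 to -0.77. G0s2 ranged from -0.72 to 0.0095, a change of sign without control replicate 2.

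Library size alone raised the median of all genes to 0.15 and gave 4824 higher and 1676 lower calls, and upper quartile scaling gave 4103 and 2177. With control replicate 2 as the only control, assumed to vary like the CCl4 libraries, 2676 genes were called (1379 higher, 1297 lower), 26 of them in the 6 lists. Plin4 (-0.97) and Cideb (-0.21) then lost their calls, and G0s2 (-1.10) was called. Genes without a call changed sign with upper quartile scaling, library size alone and that single control: Dgat1 (0.021, 0.083 and 0.037) and Pparg (0.034, 0.099 and 0.14). Under the first 2 settings Bscl2 went to 0.051 and 0.11 and Mttp to 0.014 and 0.074, and with that single control Hilpda went to -0.029. With each library left out, Bscl2 ranged from -0.085 to 0.046 (above 0 without CCl4 replicate 1) and Pparg from -0.40 to 0.15 (above 0 without control replicate 3, CCl4 replicate 1 or CCl4 replicate 2). Upper quartile scaling raised the median of all genes to 0.087. Measured from the median of all genes, Cideb stood at -0.22 with TMM, RLE, upper quartile and no scaling alike. On that measure Plin3 stood at 0.20 with each of these scalings. The cause of the changes with a library left out or with a single control was not tested.

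Deviations from the group means correlated at 0.048, 0.0040 and 0.064 for replicate numbers 1, 2 and 3. For each CCl4 library this was its highest value with any control, but control replicate 2 correlated better with CCl4 replicate 1 (0.037). Correlations this small cannot decide whether the replicate numbers pair the libraries. A fit with the replicate block called 6416 genes (6427 without) and changed the call of none of the 9 tested members. It called 61 genes of the 6 lists (53 without), Lipe and Pnpla3 among those gained. Low counts limit Cidea. Scatter among the controls limits Cidec, G0s2 and Plin4, whose SD there was 53.3%, 49.7% and 34.9% of the mean.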
